A study of Mus musculus with 4 samples.

Results

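The mitochondrial ribosomal protein genes were taken as the protein-coding rows of the count table whose symbol begins with Mrpl or Mrps followed by a number. The rule found 77 genes among 37620 rows, 47 named for the large subunit and 30 for the small subunit. RNA-seq counts came from 4 libraries of mouse embryonic stem cells (mESCs), 2 of WT_CTCF and 2 of MUT_CTCF. In both lines the endogenous CTCF carries an auxin-inducible degron and was degraded with auxin, and a transfected CTCF, selected with hygromycin, replaces it. The transfected CTCF was wild type in WT_CTCF mESCs, and in MUT_CTCF mESCs it was mutated at T668, which makes it deficient in O-GlcNAc, a sugar attached to serine or threonine. Each line was 1 clone, chosen for a CTCF level like that of the endogenous protein, so in these libraries the mutation and the clone cannot be told apart. The paper reports like results in additional clones of both lines, in its part on CTCF binding. It does not say that RNA-seq was done on them. The study describes the 2 libraries of a line as biological replicates, and neither it nor the labels say whether they came from separate cultures, so the p-values measure the spread between these libraries, which may be technical. The comparison asked how the RNA of these genes differed between mESCs with and without the T668 site of CTCF.

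Mitochondria make a small set of proteins on ribosomes of their own. Both ribosomal RNAs are encoded by mitochondrial DNA, whereas every ribosomal protein is encoded in the nucleus, translated in the cytosol and imported. The small subunit binds the mRNA and decodes it, and the large subunit joins the amino acids into chains, most of which are inserted into the inner membrane as parts of the respiratory chain and ATP synthase. Part of the proteins descend from bacterial ribosomal proteins, and the rest are found in mitochondrial ribosomes and not in bacterial ones. The symbols follow older naming, and the structures of the ribosome place the products of Mrps30 and Mrps18a in the large subunit. The product of Mrps36 is absent from these structures and is known as a subunit of the 2-oxoglutarate dehydrogenase complex.

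Total counts ran from 40524694 to 40977464 per library. Counts of Ctcf were 18273 and 18625 in WT_CTCF and 18954 and 19233 in MUT_CTCF mESCs (log2 fold change 0.04, edgeR adjusted p = 0.499). These counts do not separate the transfected from the endogenous gene and do not show the mutated codon. The summed level of 8 embryonic stem cell markers (Pou5f1, Sox2, Nanog, Esrrb, Zfp42, Klf4, Tdgf1 and Dppa5a) was 6147 to 6225 CPM, counts scaled by TMM to a common library total. That of 8 fibroblast markers was 45.6 to 51.8 CPM, with Lum at 0 in all libraries and most of the sum from Pdgfrb and Thy1. Within this list, Sox2 rose (adjusted p = 0.0358) and Dppa5a fell (adjusted p = 0.0157) in MUT_CTCF mESCs, and their part in the results below was not tested. In bulk RNA a smaller share of cells with a transcript cannot be told apart from less RNA per cell.

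The promoter sequences show what a part of these genes share beyond their names. RefSeq start sites of GRCm38.p6 gave 73 windows, each from 250 bases before to 50 bases after a start, for 67 of the 77 genes. The other genes, Mrpl13, Mrpl15, Mrpl19, Mrpl38, Mrpl4, Mrpl54, Mrps28, Mrps34, Mrps35 and Mrps36-ps1, had no matching entry. The windows below run from 250 bases before to 30 bases after the start, 5′ to 3′ on the strand of the gene. Mrpl17 is shown because it was the gene whose RNA passed the test for a difference between the lines, and Mrpl22, Mrps18a and Mrps27 because the bases shown hold at least 2 of the 4 motifs marked. Capitals mark the letters of ETS (CCGGAAG), NRF1 (CGCATGCGC), YY1 (AAGATGGCG) and CTCF core (AGGGGGCG) motifs or their reverse complements.
Mrpl17, chr7:105811058-105811337, minus strand: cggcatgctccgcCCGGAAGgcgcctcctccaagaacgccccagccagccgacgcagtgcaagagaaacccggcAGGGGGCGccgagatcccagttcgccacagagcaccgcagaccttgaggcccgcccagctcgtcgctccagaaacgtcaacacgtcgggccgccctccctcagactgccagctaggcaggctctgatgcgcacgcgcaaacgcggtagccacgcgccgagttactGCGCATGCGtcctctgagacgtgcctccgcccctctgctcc
Mrpl22, chr11:58171414-58171693, plus strand: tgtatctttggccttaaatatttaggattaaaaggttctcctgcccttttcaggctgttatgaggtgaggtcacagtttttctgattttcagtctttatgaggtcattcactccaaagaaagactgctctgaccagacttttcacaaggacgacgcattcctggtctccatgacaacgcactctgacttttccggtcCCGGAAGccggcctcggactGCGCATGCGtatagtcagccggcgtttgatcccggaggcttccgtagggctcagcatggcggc
Mrps18a, chr17:46110754-46111033, plus strand: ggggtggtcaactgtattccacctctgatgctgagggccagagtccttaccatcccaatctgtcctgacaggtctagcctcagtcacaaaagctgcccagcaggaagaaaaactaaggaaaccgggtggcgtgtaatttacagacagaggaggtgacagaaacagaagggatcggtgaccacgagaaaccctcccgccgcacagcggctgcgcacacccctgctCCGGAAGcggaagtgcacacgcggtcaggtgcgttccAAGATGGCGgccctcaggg
Mrps27, chr13:99344536-99344815, plus strand: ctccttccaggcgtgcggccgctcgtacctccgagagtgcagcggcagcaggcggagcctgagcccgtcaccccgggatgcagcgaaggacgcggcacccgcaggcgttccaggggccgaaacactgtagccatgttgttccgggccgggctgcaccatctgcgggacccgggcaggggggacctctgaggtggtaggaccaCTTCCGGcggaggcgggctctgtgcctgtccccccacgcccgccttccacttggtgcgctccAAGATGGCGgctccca

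In the Mrpl17 window the ETS letters began 237 bases, the CTCF core letters 176 bases and the NRF1 letters 11 bases before the start. Mrpl22 held ETS letters 53 bases and NRF1 letters 33 bases before its start. In Mrps18a the ETS letters began 26 bases before the start, and the YY1 letters began at base 12 from the start. Mrps27 had the same pair of motifs, the first letters lying 48 bases before the start and at base 15 from it. ETS factors, NRF1 and YY1 are known as regulators of nuclear genes for mitochondrial proteins.

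Searched on both strands in the windows of 300 bases, the ETS letters stood in 24 of 73 windows of the mitochondrial ribosomal protein genes (32.9%), in 8.86% of all 32851 windows and in 15.2% of the 13501 windows of genes tested for expression. The NRF1 letters stood in 7 of the 73 windows (9.59%) against 3.28% of the windows of tested genes. For the YY1 letters it was 8 windows (11%) against 2.54%. GGGCGGG, an SP1 motif, was as common in these genes (42.5%) as in tested genes (44.4%), and CCAAT stood in 41.1% against 37.7%. The E-box CACGTG stood in 7 windows (9.59%) against 9.78%. A gene with several starts has several windows, and overlapping windows of Mrpl2 are among these 7. By subunit, the ETS letters were in 13 of 46 large and 11 of 27 small subunit windows. The CTCF core letters were found in 1 of the 73 windows, that of Mrpl17, against 10.8% of the windows of tested genes. These shares describe letters in a fixed window and carry no test. No CTCF core in a window says only that these 8 letters are not there.

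The genes were spread over 17 chromosomes. Of the 77 genes, 28 (36.4%) start within 1000 bases of the start of a protein-coding gene on the opposite strand, here called head to head. Pairs that overlap at their 5′ ends, as Mrpl14, Mrpl18 and Mrpl48 do with their neighbours, are counted with those that do not. Over protein-coding genes tested for expression the share was 14.5% (2127 of 14654). It was 19 of 47 for the large and 9 of 30 for the small subunit. In 1 pair both genes are members: Mrpl46 (chr7:85920122-85928417, minus strand, mm9) and Mrps11 (chr7:85928005-85937875, plus strand) overlap at their 5′ ends. Exon positions were shared with another gene by 26 of the 77 genes (33.8%), against 24.9% of tested protein-coding genes. The sources used here do not give the strand setting of the counting, so reads over shared positions may have been left out or assigned to either gene. More than 25% of exon positions were shared in 8 genes: Mrpl19, Mrpl24, Mrpl48, Mrpl53, Mrps34, Mrps25, Mrps18b and Mrps6.

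Mitochondrial ribosomal protein genes were well expressed. Their summed counts made up 0.469% to 0.488% of all counts. Of the 77 genes, 75 passed the filter on low counts, 46 named for the large and 29 for the small subunit. Mrpl53 (chr6:83059089-83059933, plus strand), a large subunit protein, had 0 counts in every library, which allows up to 0.0732 to 0.074 CPM by counting error. All but 95 of its 735 exon positions are shared with Ccdc142 on the same strand (87.1%), so its level was not measurable here. Mrps36-ps1, annotated as protein coding although its symbol names a pseudogene, had 3 and 3 counts in WT_CTCF and 1 and 4 in MUT_CTCF mESCs.

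Per length, as CPM per kilobase of annotated exon (RPKM, computed here over all exons of a gene), the 75 genes spanned 4.04 to 98.9 with a median of 29.9. The median was 35.3 for the large and 21.7 for the small subunit. In CPM, before dividing by exon length, the medians were much alike, at 51.5 and 51.3. The genes with the highest mean RPKM in the large subunit were Mrpl2 and Mrpl4. The product of Mrpl2 is the counterpart of a bacterial protein next to the catalytic centre, and its RPKM was 105 and 98.8 in WT_CTCF and 95.5 and 96.3 in MUT_CTCF mESCs. Mrpl4 had 94 and 96.9 against 86.5 and 92.6 RPKM. Mrpl42, next in the order with 97.3 and 92.6 against 88.4 and 88.1 RPKM, did not differ from Mrpl4 beyond their spread. In Mrpl2 and Mrpl4 the 2 MUT_CTCF libraries lay below the 2 WT_CTCF libraries, and neither difference passed the test (adjusted p = 0.341 and 0.317 by edgeR). At the low end of the large subunit were Mrpl48 (4.26 to 4.59 RPKM) and Mrpl33 (3.57 to 4.25 RPKM). The annotated exons of Mrpl33 cover 7473 bases and those of Mrpl48 6139 bases, far more than their short coding regions need, and this lowers an RPKM.

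Among genes named for the small subunit, Mrps30 and Mrps16 had the highest RPKM, and these 2 neighbours in the order did not differ beyond their spread. Mrps30 had 75.1 and 68.5 RPKM in WT_CTCF and 76.1 and 73.8 in MUT_CTCF mESCs, with overlapping groups. Mrps16, the counterpart of a bacterial small subunit protein, had 75.5 and 75.8 against 70.9 and 70.5 RPKM, with no overlap. The lowest RPKM values were those of Mrps25 (5.44 to 6.24) and Mrps10 (7.67 to 8.4). Their annotated exons cover 6576 and 8079 bases, which lowers an RPKM. In CPM their means were 38.7 and 64.9, against a small subunit median of 51.3 and a lowest gene at 12.4. The plot of RPKM per library shows the range over the genes beside the spread between libraries.

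**Figure D1:**
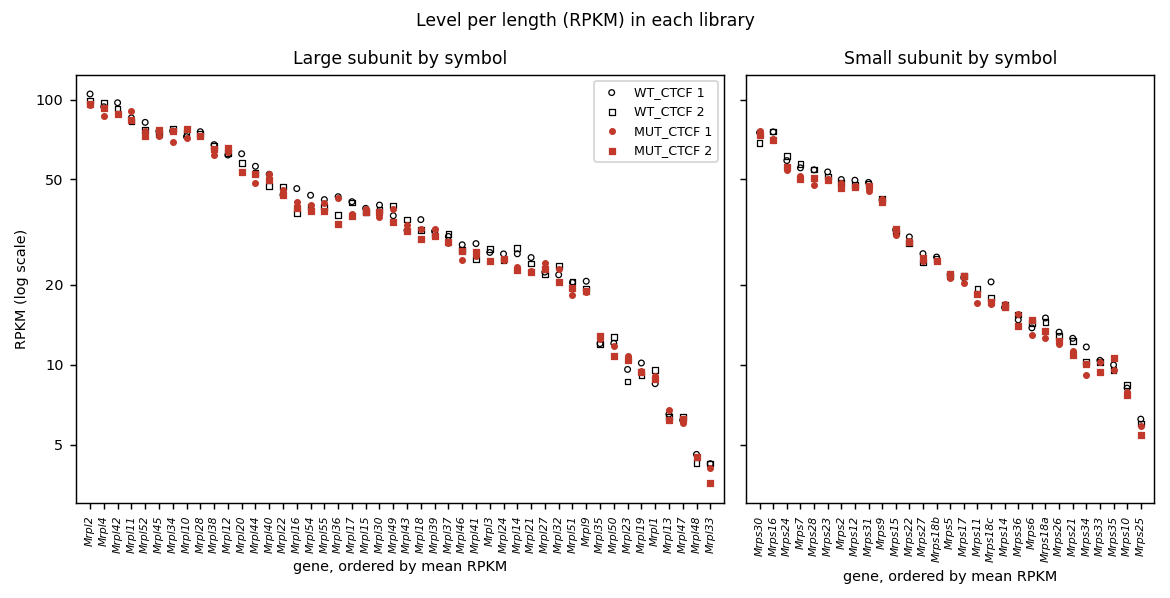
Level of the 75 tested genes as RPKM on a log scale (y axis), ordered by mean within the large and small subunit (x axis), with 1 point per library. Genes span 4.04 to 98.9 RPKM, and neighbours in the order overlap in places, as Mrpl4 and Mrpl42 do.

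MUT_CTCF mESCs had slightly lower counts of most mitochondrial ribosomal protein genes, and 1 gene passed the test. Mrpl17, a large subunit protein whose bacterial counterpart lies near the exit of the peptide tunnel, fell. In the edgeR quasi-likelihood fit over 16264 genes with Benjamini-Hochberg adjustment, 1 of the 75 tested genes was called lower at an adjusted p under 0.05, against 1.61% of all genes tested. None was called higher, against 1.56% of all genes tested. At an unadjusted p under 0.05, 15 genes were lower and 1 was higher, against 7.65% lower and 7.61% higher of all genes tested. Within the level range of these genes, 10.4% of tested genes were lower at an unadjusted p under 0.05. So the count of calls stood near that of all genes, while the unadjusted count of lower genes (20%) stood above it. That count rested on single libraries and on the tool. It was 6 (8%) without the first WT_CTCF library, where 4.91% of all genes were lower at an unadjusted p under 0.05, and 6 (8%) without the first MUT_CTCF library, against 5.1%. It was 7 of 76 with DESeq2 (9.21%), against 3.3% of all genes. DESeq2 called 1 gene lower and none higher, with no adjusted p for 14 of the 75 genes.

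The direction was shared more widely than the calls. Of the 75 genes, 62 (82.7%) had a log2 fold change below 0, against 49.2% of all genes tested and 53.9% of the 7324 tested genes within the level range of these genes (12.4 to 217 CPM). In 35 genes both MUT_CTCF libraries lay below both WT_CTCF libraries, against 22.3% of all genes tested. In 4 genes (Mrpl23, Mrpl35, Mrpl12 and Mrpl27) both lay above, against 22.3%. The median log2 fold change of the 75 genes was -0.06, and that of all genes tested was 0.00. Log2 fold changes ran from -0.22 to 0.22, with standard errors of 0.04 to 0.12. The study's own criterion asked for a fold change above 2 besides p under 0.05, and none of the 75 genes met it, against 1.3% of all genes tested and 0.0546% (4 of 7324) of tested genes in the same level range.

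Summed over all members, the level was 4907 and 4813 CPM in WT_CTCF and 4674 and 4680 CPM in MUT_CTCF mESCs, so the groups did not overlap, and the MUT_CTCF mean was lower by 3.77%, from 4860 ± 66.8 (SD, n = 2) to 4677 ± 3.94 (SD, n = 2) CPM. The first WT_CTCF library was the highest. Without it, 53 of the 75 genes remained below 0 in log2 fold change (70.7%), where 49.5% of all genes tested were below 0. Without any other single library the count was 57 to 61. With 2 libraries against 2, an exact permutation test of a single value cannot go below p = 0.333 (two-sided).

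**Figure D2:**
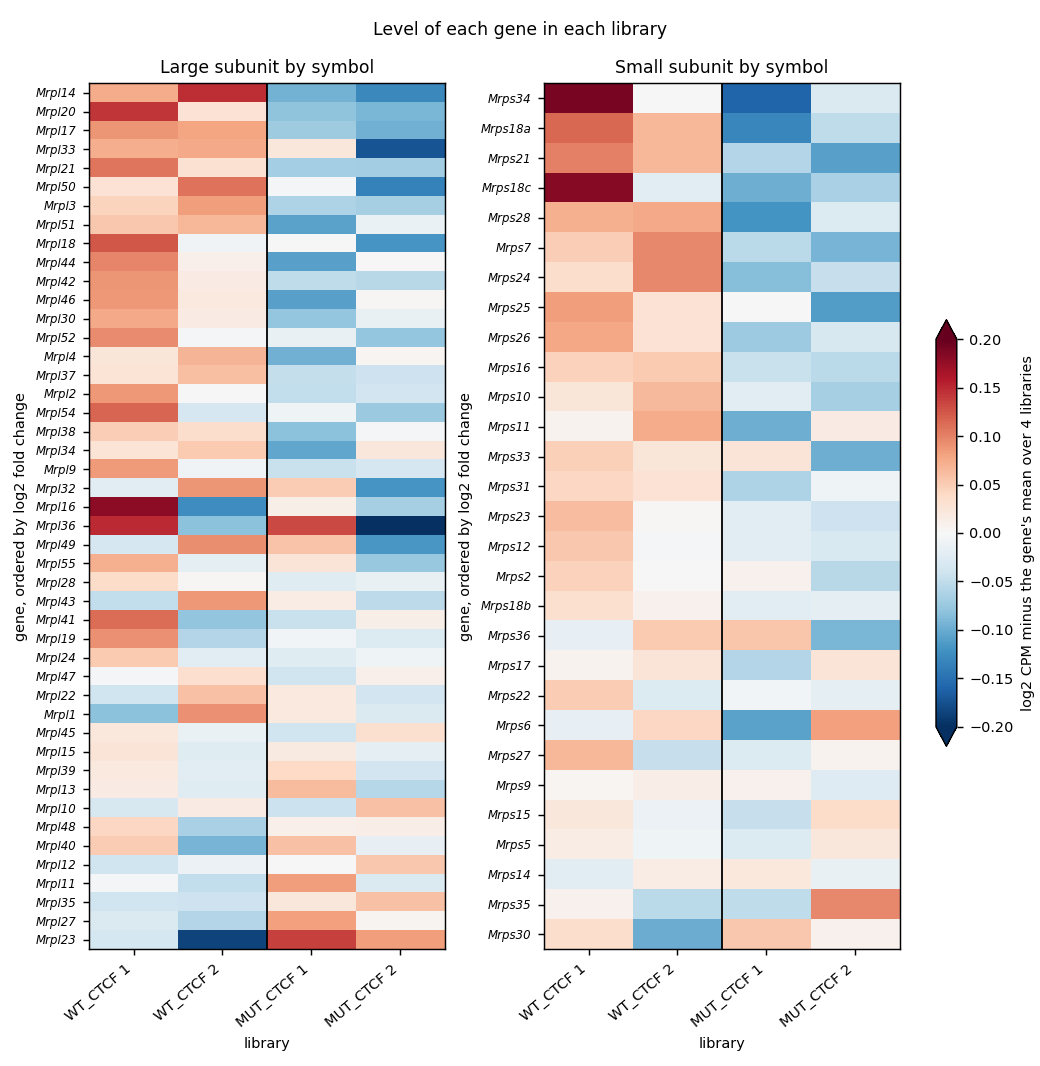
Log2 CPM of each of the 75 tested genes minus the gene's mean over the 4 libraries (colour), with libraries as columns and genes as rows ordered by log2 fold change. Red cells lie mainly in the 2 WT_CTCF columns and blue cells mainly in the 2 MUT_CTCF columns, and in 35 genes both MUT_CTCF cells lie below both WT_CTCF cells.

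The large and small subunits differed little from each other. Genes named for the large subunit had a median log2 fold change of -0.06, with 36 of 46 below 0. Genes named for the small subunit had a median of -0.06, with 26 of 29 below 0. The difference between the 2 medians was 0.00165, and it ran from -0.00563 to 0.0185 with any 1 library left out. As a level in each library, the median log2 CPM of large minus small subunit genes varied by 0.059 (pooled SD within lines). The summed level of the large subunit was 3175 and 3110 CPM in WT_CTCF and 3028 and 3022 CPM in MUT_CTCF mESCs. For the small subunit it was 1732 and 1703 CPM against 1646 and 1657 CPM. In both subunits the groups did not overlap. The large to small ratio of summed CPM was 1.83 ± 0.00487 in WT_CTCF and 1.83 ± 0.0108 in MUT_CTCF mESCs (SD, n = 2), and the groups overlapped. With 2 libraries a line, a difference between subunits within the spread of this ratio was not detectable.

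The split was much the same when genes were placed by the structure of the ribosome. The 48 tested genes of the large subunit then had 37 below 0 (median -0.06), and the 26 of the small subunit had 24 below 0 (median -0.07). By descent, 38 of the 46 tested genes with a bacterial counterpart were below 0 (median -0.06). Of the 28 genes found in mitochondrial ribosomes alone, 23 were below 0 (median -0.07). The 4 genes with both MUT_CTCF libraries above both WT_CTCF libraries all had a bacterial counterpart and were all named for the large subunit.

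**Figure D3:**
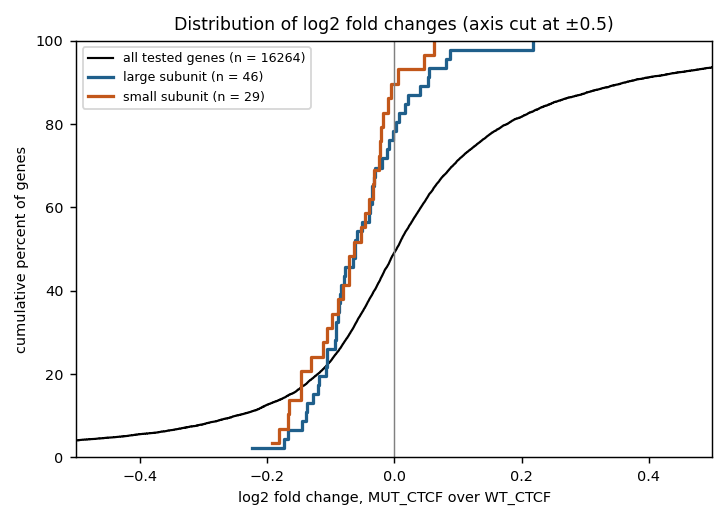
Cumulative percent of genes (y axis) by log2 fold change of MUT_CTCF over WT_CTCF (x axis, cut at ±0.5) for 46 large subunit genes, 29 small subunit genes and all 16264 tested genes. Both subunit curves run together and cross 0 at 78.3% and 89.7%, where the curve of all genes stands at 49.2%.

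In the large subunit, Mrpl17 (ENSMUSG00000030879, chr7:112955172-112959613, minus strand, mm9) had 6970 and 6918 counts in WT_CTCF and 6303 and 6113 counts in MUT_CTCF mESCs. Both MUT_CTCF libraries lay below both WT_CTCF libraries, and the level fell from 171 ± 0.812 to 152 ± 1.84 CPM (SD, n = 2). The log2 fold change was -0.17 (SE 0.0385, adjusted p = 0.00576 by edgeR). None of its exon positions is shared with another annotated gene. Its adjusted p was 0.0622 to 0.455 when any 1 library was left out and 0.166 without the filter on low counts, so the call needed all 4 libraries and the filter. The log2 fold change itself was -0.18 to -0.16 with 1 library left out and -0.17 without the filter.

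Other large subunit genes with low values did not pass. Mrpl20, the counterpart of a bacterial protein needed for early assembly of the large subunit, had 2758 and 2549 counts against 2388 and 2338 (log2 fold change -0.17, adjusted p = 0.0894). Mrpl14, which lies at the interface of the subunits, had 1013 and 1065 counts against 910 and 877 (log2 fold change -0.22, SE 0.086, adjusted p = 0.163). In both genes the MUT_CTCF counts were below all WT_CTCF counts. Mrpl14 shares 11.2% of its exon positions with Tmem63b on the opposite strand, whose log2 fold change was 0.00.

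On the other side stood Mrpl23, Mrpl27 and Mrpl35, with the highest log2 fold changes of the large subunit. Mrpl23, the counterpart of a bacterial protein at the tunnel exit, had 695 and 626 counts in WT_CTCF and 791 and 752 in MUT_CTCF mESCs (log2 fold change 0.22, SE 0.0993, adjusted p = 0.277). The groups did not overlap, and it was the single gene with a higher value at an unadjusted p under 0.05. Mrpl27, the counterpart of a bacterial protein that reaches the catalytic centre, had 897 and 878 counts against 978 and 915 (log2 fold change 0.09, adjusted p = 0.72). Mrpl35 had 1818 and 1814 counts against 1917 and 1939 (log2 fold change 0.08, adjusted p = 0.619).

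**Figure D4:**
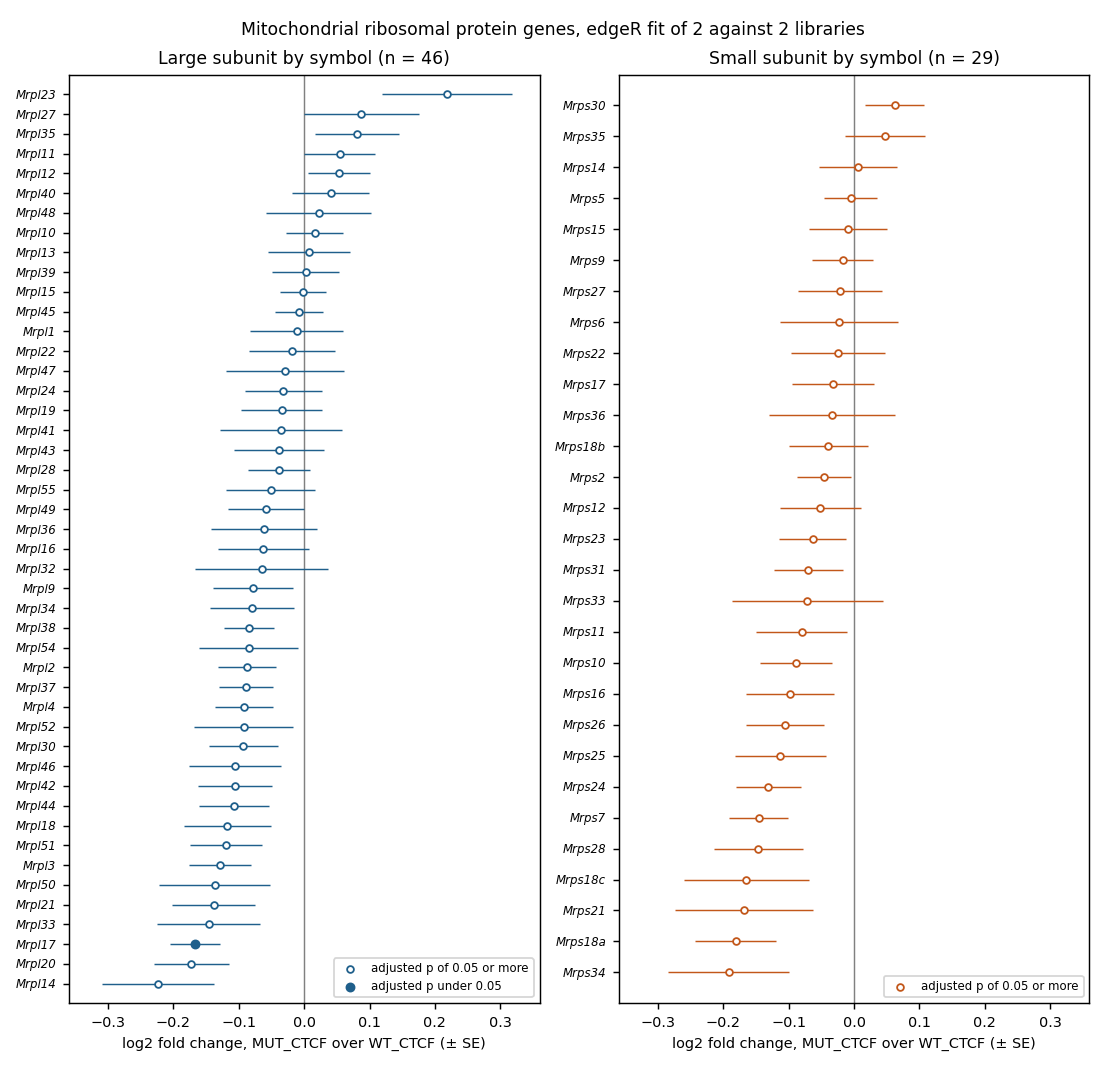
Log2 fold change of MUT_CTCF over WT_CTCF (x axis, bars ± SE of the edgeR fit) for the 46 large and 29 small subunit genes tested (y axis), with filled points for an adjusted p under 0.05. Mrpl17 is the filled point, 36 large and 26 small subunit genes lie below 0, and Mrpl23 lies highest at 0.22.

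Among genes named for the small subunit, Mrps7 came closest to the threshold. Mrps7, whose bacterial counterpart starts the assembly of a domain of the small subunit, had 4665 and 4815 counts in WT_CTCF and 4389 and 4213 in MUT_CTCF mESCs. The groups did not overlap (log2 fold change -0.15, SE 0.0447, adjusted p = 0.0557). It passed at an adjusted p of 0.0391 when at least 10 reads were required in every library, and at 0.0297 with the replicate number in the fit. It did not pass with DESeq2 (adjusted p = 0.088), with library sizes alone (0.1) or without the filter on low counts (0.293). Its log2 fold change was -0.17 to -0.12 with 1 library left out. It shares 11.9% of its exon positions with genes on the opposite strand.

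Mrps34 and Mrps21 had low values with larger errors. Mrps34, a protein found in mitochondrial ribosomes alone, had 981 and 859 counts against 777 and 840 (log2 fold change -0.19, SE 0.0927, adjusted p = 0.316). The groups did not overlap, and 77.8% of its exon positions are shared with Mapk8ip3 or Nme3, so its counts are uncertain. Its log2 fold change was -0.09 without the first WT_CTCF library and -0.29 without the second, and -0.13 without the first MUT_CTCF library. Mrps21 had 657 and 641 counts against 594 and 566 (log2 fold change -0.17, adjusted p = 0.484). The highest log2 fold changes among small subunit symbols were 0.06 for Mrps30, 0.05 for Mrps35 and 0.01 for Mrps14, with adjusted p from 0.576 to 0.978 and overlapping groups.

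The 3 Mrps18 genes encode related proteins that sit in different places of the ribosome. Mrps18a, in the large subunit, had 2256 and 2180 counts in WT_CTCF and 1922 and 2005 in MUT_CTCF mESCs (log2 fold change -0.18, SE 0.0617, adjusted p = 0.101). Mrps18b, in the small subunit, had 2168 and 2132 counts against 2113 and 2087 (log2 fold change -0.04, SE 0.0606, adjusted p = 0.838). Mrps18c, the counterpart of the bacterial protein in the small subunit, had 900 and 781 counts against 749 and 756 (log2 fold change -0.17, SE 0.0955, adjusted p = 0.429). Without the first WT_CTCF library its log2 fold change was -0.06, and without the second it was -0.26. None of them passed, all were lower in both MUT_CTCF libraries once scaled, and differences between these 3 genes were not tested. Mrps36 had 766 and 803 counts against 814 and 725, with overlapping groups (log2 fold change -0.03, adjusted p = 0.922).

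Of 26 genes that start head to head with a mitochondrial ribosomal protein gene and are outside the list, 25 were tested, none passed at an adjusted p under 0.05 and 15 were below 0 (median log2 fold change -0.01). Of these 25 pairs, both genes were below 0 in 12, and the ribosomal gene was below 0 with a neighbour above 0 in 8. Mrps7 was lower in both MUT_CTCF libraries while its neighbour Gga3 had 6218 and 5953 against 6243 and 5998 counts (log2 fold change 0.00, adjusted p = 0.985). The Mrpl43 neighbour Peo1, the helicase of mitochondrial DNA, had 2619 and 2630 counts in WT_CTCF and 2410 and 2379 in MUT_CTCF mESCs (log2 fold change -0.14, adjusted p = 0.201). For Mrpl46 and Mrps11, log2 fold changes were -0.11 and -0.08, and neither passed (adjusted p = 0.526 and 0.655).

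**Figure D5:**
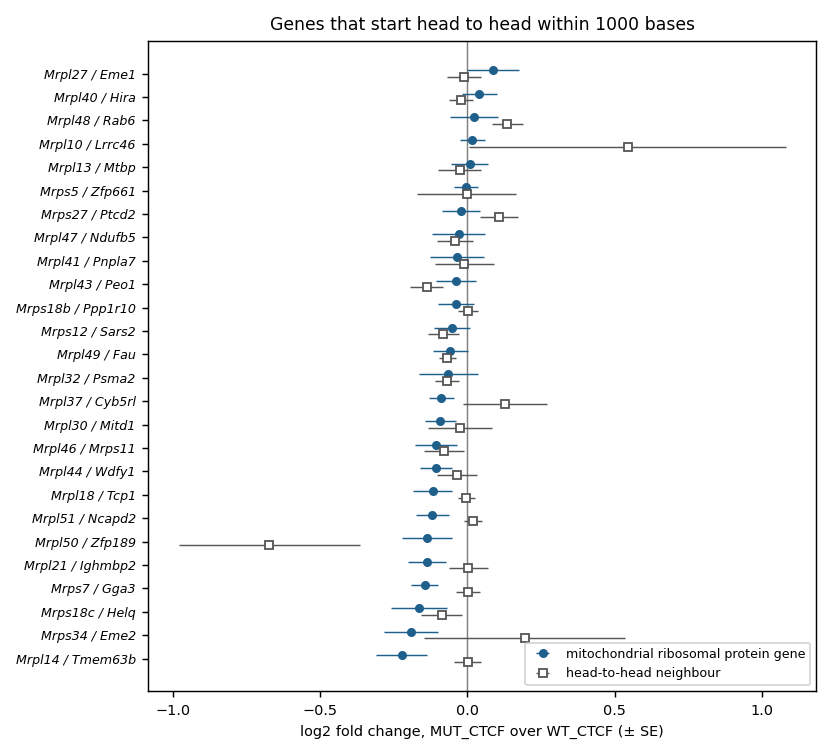
Log2 fold change (x axis, bars ± SE) of 26 head-to-head pairs (y axis), with circles for the mitochondrial ribosomal protein gene and squares for the neighbour. The Mrpl46 and Mrps11 pair, both members, is drawn once, and the neighbours scatter on both sides of 0 with a median of -0.01 over the 25 outside the list.

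The genes around the mitochondrial ribosome gave few calls, to be read beside 1.61% called lower and 1.56% called higher of all genes tested. Proteins of the ribosome with other names (7 of 7 tested, among them Dap3 and Ptcd3) gave no call, with 5 below 0 and a median of -0.06. The lowest was Gadd45gip1, a large subunit protein, with 1196 and 1230 counts against 963 and 1134 (log2 fold change -0.22, adjusted p = 0.167). Mitochondrial translation factors gave no call among 15 tested, with 6 below 0 and a median of 0.03. Among assembly factors, 1 of 25 tested fell and none rose, with 18 below 0 and a median of -0.05. That gene was Rnmtl1, a methyltransferase of the large mitochondrial ribosomal RNA, with 1303 and 1329 counts in WT_CTCF and 1025 and 1081 in MUT_CTCF mESCs (log2 fold change -0.33, SE 0.0787, adjusted p = 0.0089). Among transcription and RNA factors, 1 of 21 fell and none rose, with 16 below 0 and a median of -0.03. It was Grsf1, an RNA-binding protein of mitochondrial RNA granules, with 16155 and 15947 counts against 14392 and 14064 (log2 fold change -0.18, SE 0.0297, adjusted p = 4.05e-05).

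Of the RNAs that these ribosomes translate, 12 of the 13 protein-coding genes of the mitochondrial genome were tested, 9 were above 0 and 3 rose, against 1.56% of all genes tested. The largest change among those 3 was in mt-Nd5, a complex I subunit, with 26708 and 26760 counts in WT_CTCF and 32999 and 30708 in MUT_CTCF mESCs (log2 fold change 0.25, SE 0.0264, adjusted p = 4.43e-10). The others were mt-Nd6, with 5148 and 5144 counts against 6110 and 5493 (0.17, edgeR adjusted p = 0.0171), and mt-Co1 (0.06, adjusted p = 0.0319). Counts of mt-Co1 were 445725 and 440174 against 477587 and 446903. In all 3 genes the first MUT_CTCF library was the higher of its line. Some of the 12 genes had few counts, so their directions are uncertain. Among them were mt-Nd3 (14 and 17 counts against 11 and 8), mt-Nd4l (16 and 27 against 24 and 25) and mt-Atp6 (96 and 108 against 111 and 97). Counts of mt-Co2 (348 and 363 against 338 and 311) and mt-Co3 (244 and 275 against 232 and 253) were also far below those of mt-Co1. Only uniquely mapped reads were counted, so reads that also match another place are missing. Their part in these low counts was not tested, and the directions do not cover all RNAs of the mitochondrial genome alike. Genes of cytosolic ribosomal proteins, the counterpart set in the cytosol, had 75 of 83 tested below 0 (median -0.07) and 24 called lower, against 1.61% of all genes tested. Mitochondrial ribosomal protein genes had 62 of 75 below 0 and 1 call. The difference between the 2 sets was not tested, and cytosolic genes had higher levels (median 647 CPM against 51.3 CPM).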

How the data were processed

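RNA-seq was done on 2 WT_CTCF and 2 MUT_CTCF libraries of mESCs. The authors trimmed reads with Trim Galore (0.4.4), used STAR for alignment to mm9, and deposited counts of uniquely mapped reads per gene from HTSeq (0.9.1, versions from the submitters' processing notes). The annotation and strand setting are not given in the sources used here. A second deposited table holds the authors' own edgeR comparison (fold changes and p-values) and was not used.

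Names, exons and coordinates came from GENCODE M1 on mm9, which named 37205 of 37620 rows. Counts were filtered with filterByExpr (minimum 10, 16264 genes kept), scaled by TMM and tested with glmQLFit and glmQLFTest (edgeR 4.0.16, R 4.3.3) on the line alone. P-values were adjusted over all tested genes by the Benjamini-Hochberg method. The fit was also run on counts simulated with a common dispersion and fold changes larger than any mitochondrial ribosomal protein gene had. That run does not cover changes as small as theirs. Replicates differed by more than sampling noise, so each library was kept. Totals of 40524694 to 40977464 counts set the precision, and intervals from counts cover counting error only. RPKM divides CPM by annotated exon length.

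The members and lists were chosen with earlier results of these data known. Named genes are those called, the 3 highest and 3 lowest log2 fold changes, the 2 highest and 2 lowest levels and the 2 smallest p per subunit, the Mrps18 genes, Mrps30, Mrps36, those not tested, and called genes of the other lists. Others named (Mrpl22, Mrpl42, Mrps27, Mrpl12, Mrpl46, Mrps11, the head-to-head neighbours, Gadd45gip1 and mitochondrially encoded genes) were chosen after their values were seen. As alternatives, DESeq2 (1.42.0) and the exact test of edgeR were run, with other scalings and filters, the replicate block, each library left out, subunits by structure, and genes sharing exon positions left out.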

Additional observations from a re-analysis of the deposited data

How the results depend on the processing

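Of the 75 genes, 1 was called lower and none higher. The count of lower calls was 0 without the filter on low counts, 2 with at least 10 reads in every library, and 0 with any 1 library left out. No alternative gave a higher call. Genes lower at an unadjusted p under 0.05, counts added after seeing the data, were 15. They were 7 with DESeq2 (9.21%, against 3.3% of all genes), 7 with library sizes alone (9.33% against 5.81%), 9 of 50 when genes sharing exon positions were left out, and 6 to 11 when each library was left out, where all genes gave 4.91% to 5.66%. The 9 of 50 came from the main fit, where 7.65% of all genes tested were lower at an unadjusted p under 0.05. The cause of these differences was not tested. Scaling by library size alone moved the median of all genes from 0.00 to 0.02 and left 57 genes below 0 (76%), against 45.5% of all genes. Medians of both subunits kept their sign under every alternative, from -0.08 to -0.05 for each, and the large minus small difference ran from -0.02 to 0.02 with no sign kept. Among 23 named genes under 11 alternatives each, 231 of 253 values kept their direction and side of the threshold, and 8 more kept their direction with no adjusted p from DESeq2. Mrpl17 lost its call in 5. The sign turned for 5 genes, none of them called. With 1 library left out, Mrpl48 ran from -0.0315 to 0.0763, Mrps14 from -0.0116 to 0.0229, Mrps35 from -0.0296 to 0.118, Mrps30 from -0.00409 to 0.13 and Mrps36 from -0.11 to 0.0365.

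The labels do not say whether equal replicate numbers pair the libraries. Deviations from the line means correlated at -0.0192 between libraries with the same number. This single value weighs all tested genes alike, also those with few counts, where counting error can hide a shared deviation. It cannot decide whether the numbers pair the libraries. With the replicate block, 2 genes were called lower, Mrpl17 and Mrps7 (adjusted p = 0.0297), and medians were -0.06 and -0.06. In that fit 16 genes (21.3%) were lower at an unadjusted p under 0.05, against 8.2% of all genes. Leaving out 1 library leaves 1 in a line, which is then assumed to vary like the other line.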

Other observations

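Copies of these genes that the annotation calls pseudogenes had few reads. Mrpl48-ps had 40 and 41 counts in WT_CTCF and 18 and 23 in MUT_CTCF mESCs (log2 fold change -0.98, SE 0.526, edgeR adjusted p = 0.378). Mrpl23-ps1 had 14 and 10 counts against 10 and 22, and Mrps36-ps2 had 2 and 0 against 2 and 0. Reads that map equally well to a gene and its copy are not in these counts, so values of Mrpl23, Mrpl48 and Mrps36 are uncertain by that part. Ccdc142, which shares positions with Mrpl53, had 155 and 119 counts in WT_CTCF and 102 and 90 in MUT_CTCF mESCs (log2 fold change -0.52, SE 0.245, adjusted p = 0.301).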
